A study of Homo sapiens with 9 samples.

Results

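The genes described here are the MHC class II genes and CIITA, the gene of their shared coactivator, in the human breast cancer line MDA-MB-231. The 10 genes were taken by name from the 58735 genes measured: HLA-DRA, HLA-DRB1, HLA-DPA1, HLA-DPB1, HLA-DQB1, HLA-DMA, HLA-DMB, HLA-DOA, CD74 and CIITA. Wild-type cells were kept in TIS CM, in Cont CM or in No CM, with 3 libraries in each group. TIS CM is medium conditioned by MDA-MB-231 cells that had been driven into therapy-induced senescence with nocodazole, a microtubule-depolymerizing drug, at 100 ng/ml for 72 h. Cont CM is medium conditioned by non-senescent cells of the same line, and No CM is plain medium. The time in the medium is 72 h in the sample labels and 48 h in the series' design text. Nothing in the labels states that replicates were separate cultures, so the spread that p-values rest on may be technical.

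MHC class II molecules are pairs of an alpha and a beta chain that carry peptides of endocytosed proteins to the cell surface for CD4+ T cells. The new pair is held by the invariant chain, CD74, whose remnant CLIP is exchanged for peptide by HLA-DM, and HLA-DO restrains HLA-DM. CIITA binds no DNA itself but is recruited to the promoters of these genes by the RFX, CREB and NF-Y factors on the X and Y boxes. Dendritic cells, B cells and macrophages express it constitutively, and interferon-gamma induces it in many other cells through IRF1.

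Between 32636708 and 39189036 fragments fell on genes in each library. Vimentin (VIM), CD44, EGFR, AXL and S100A4, markers of this mesenchymal line, were present in every library, and the hormone receptor genes ESR1 and PGR were near 0. ERBB2, EPCAM and GATA3, which had been listed as low or absent in the line, stood at 7.92 to 9.59, 7.58 to 10.06 and 4.67 to 6.72 FPKM over the 9 libraries. The epithelial cadherin gene CDH1, of the same list, was lowest in Cont CM and highest in No CM, as the class II genes were. It stood at 0.389 to 0.511 FPKM in TIS CM, 0.212 to 0.388 in Cont CM and 1.12 to 1.23 in No CM. CDH1 reached the mean of 0.5 FPKM needed for testing only through No CM, so the filter favoured a fall against No CM. For CDH1, TIS CM against Cont CM did not pass the test (log2 fold change 0.23, limma adjusted p = 0.243). S100A4 was called higher in TIS CM than in Cont CM (log2 fold change 0.41, limma adjusted p = 0.0432) and lower in Cont CM against No CM (-0.59, adjusted p = 0.00376), and EGFR moved the other way in both (-0.17, adjusted p = 0.042, and 0.36, adjusted p = 0.000656). Of 17 marker genes of immune cells that carry class II or of T cells, 5 were at 0 in every library (MS4A1, CD3D, TYROBP and CLEC9A among them) and 14 stayed under 0.5 FPKM in every library. The pan-leukocyte gene PTPRC did not exceed 0.028 FPKM. The 17 markers summed to 5.77 to 6.24 FPKM in TIS CM, 4.24 to 4.66 in Cont CM and 5.88 to 6.96 in No CM, and most of that was CD14, at 4.13 to 4.86, 3.14 to 3.63 and 4.03 to 5.17 FPKM in the same order. The summed immune markers were thus lowest in Cont CM, as the class II genes were, but their sums in TIS CM and No CM overlapped. CD14 was called lower in Cont CM than No CM (log2 fold change -0.43, limma adjusted p = 0.0173). CSF1R, the only other immune marker tested, was not called there (-0.46, limma adjusted p = 0.0737). Neither was called in the other comparisons. The part of any of these markers in the results below was not tested. In bulk RNA, fewer cells that express a gene and less of its RNA per cell cannot be told apart.

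HLA-DRA, HLA-DRB1, HLA-DPA1, HLA-DPB1, HLA-DQB1, HLA-DMA, HLA-DMB and HLA-DOA lie in the class II region of chromosome 6, CD74 on chromosome 5 and CIITA on chromosome 16. Promoter stretches with both the X and the Y box core are shown first because CIITA acts through these boxes. RefSeq promoter windows on GRCh38.p14, 250 bases before to 50 bases after a gene's start, were found for 8 of the 10 genes, in 9 windows. They were searched on both strands for the X box core ACNGATG and the Y box core GATTGG, which do not overlap each other in the sequences shown. The pair on 1 strand, with the Y core starting 15 to 45 bases after the start of the X core, was found in HLA-DRB1, HLA-DQB1 and HLA-DMA, and in HLA-DRB5, 1 of 5 other class II loci with a window. Among all 34943 windows of the table, 7.66% held the X core, 15.1% the Y core and 0.0687% the pair. The 4 stretches read 5′ to 3′ on the minus strand, with 10 bases on each side of the pair and with both cores in capitals. They lie at chr6:32589880-32589933 for HLA-DRB1, chr6:32530363-32530416 for HLA-DRB5, chr6:32666731-32666784 for HLA-DQB1 and chr6:32953162-32953216 for HLA-DMA.
HLA-DRB1: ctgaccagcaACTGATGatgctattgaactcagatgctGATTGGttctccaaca
HLA-DRB5: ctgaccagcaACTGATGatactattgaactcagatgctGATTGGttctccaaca
HLA-DQB1: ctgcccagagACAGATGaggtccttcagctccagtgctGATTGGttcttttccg
HLA-DMA: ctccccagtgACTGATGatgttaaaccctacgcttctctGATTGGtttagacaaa

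The X and Y cores started 28 bases apart in HLA-DRB1, HLA-DRB5 and HLA-DQB1 and 29 bases apart in HLA-DMA. The HLA-DOA window, shown beside them because its Y core stands in a like place without these letters of the X core, reads as follows at chr6:33009644-33009697 on the minus strand, with the Y core in capitals.
HLA-DOA: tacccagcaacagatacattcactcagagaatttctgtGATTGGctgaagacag

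HLA-DMB held the X core on its own strand and the Y core on the opposite one, HLA-DPB1 held the Y core on the opposite strand, CD74 held the X core on the opposite strand, and neither window of HLA-DPA1 held either core. HLA-DRA and CIITA were not among the windows. A match is a description of the letters only.

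**Figure D1:**
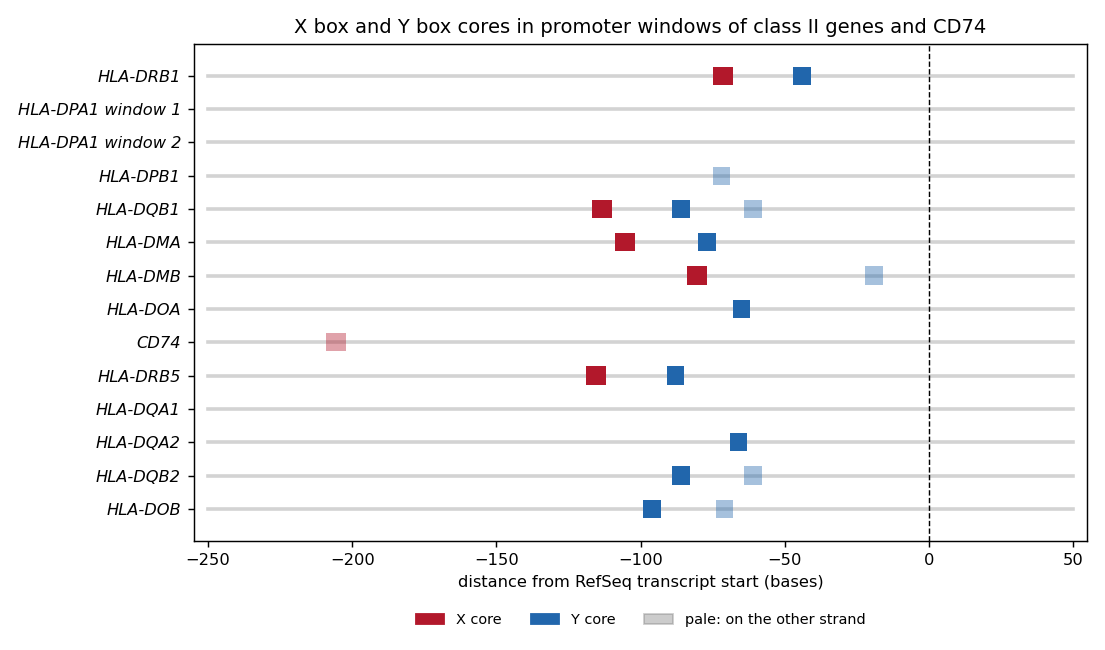
X and Y box cores in the RefSeq promoter windows of the class II genes; the x axis is the distance from the gene's start in bases and each row is 1 window, with cores on the opposite strand in pale colour. The X core and Y core of HLA-DRB1, HLA-DRB5, HLA-DQB1 and HLA-DMA stand 28 or 29 bases apart.

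Levels are given in FPKM, fragments scaled by the gene's length and the library's size. HLA-DRA, the alpha chain of HLA-DR, and CD74 were by far the most abundant of the 10 genes. By mean FPKM, HLA-DRA ranked 199 in TIS CM, 413 in Cont CM and 96 in No CM among all genes, and CD74 ranked 192, 337 and 122. CIITA ranked 11037, 11863 and 10459. The order of mean levels in TIS CM was CD74, HLA-DRA, HLA-DPA1, HLA-DPB1, HLA-DRB1, HLA-DMA, HLA-DMB, HLA-DOA, CIITA and HLA-DQB1. There, the libraries of CD74 and HLA-DRA overlapped, as did those of HLA-DRB1 and HLA-DMA, and no other neighbours in the order did. In Cont CM the first 4 places were the same, followed by HLA-DMA, HLA-DRB1, HLA-DMB, HLA-DOA, CIITA and HLA-DQB1, and 6 of the 9 neighbouring pairs overlapped. In No CM HLA-DRA stood before CD74, HLA-DMA before HLA-DRB1 and HLA-DOA before HLA-DMB, and the overlapping neighbours were HLA-DRA with CD74, HLA-DPA1 with HLA-DPB1 and HLA-DOA with HLA-DMB. The 10 genes together summed to 396 ± 20.8 FPKM in TIS CM, 246 ± 69.8 in Cont CM and 573 ± 53.9 in No CM (SD, n = 3 each).

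**Figure D2:**
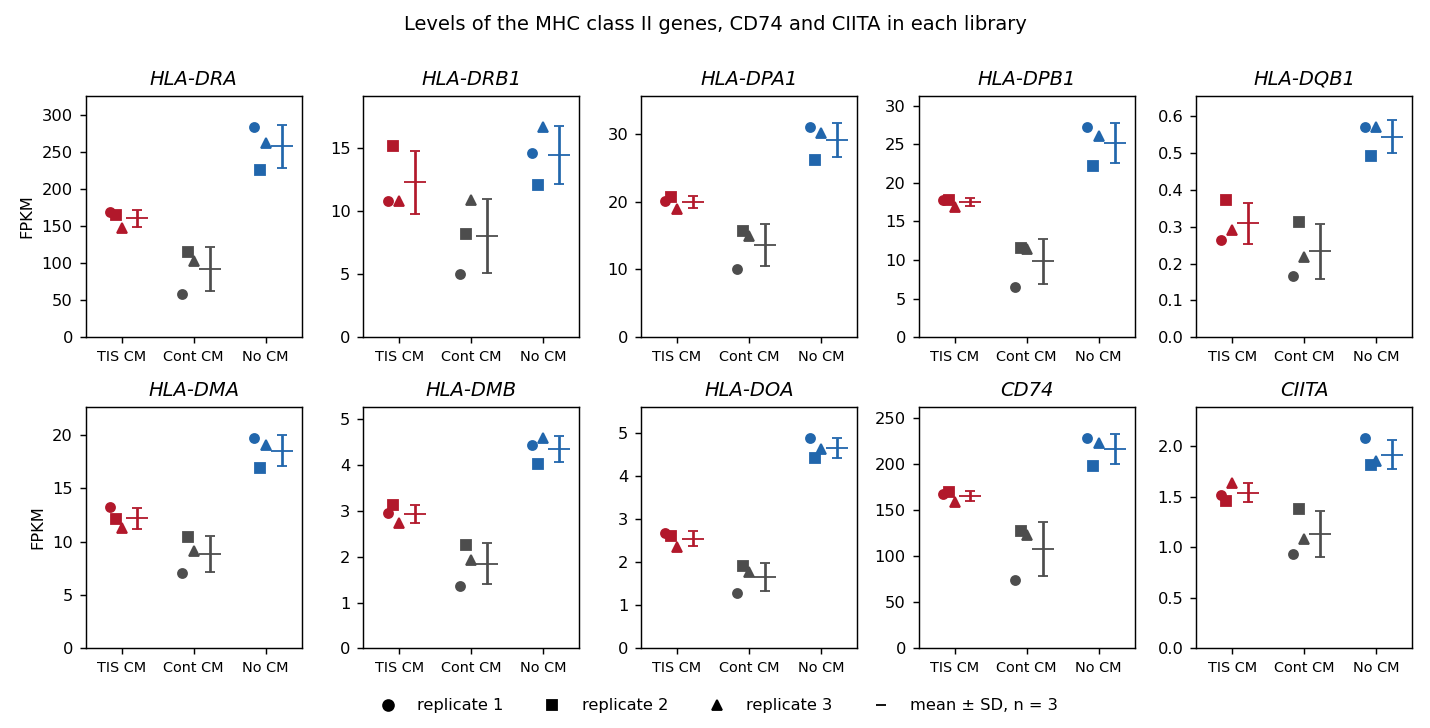
FPKM (y axis, linear from 0, 1 panel per gene) of the 10 genes in each of the 9 libraries, with TIS CM, Cont CM and No CM side by side; points are libraries and bars are the mean ± SD (n = 3). For all 10 genes the Cont CM libraries lie below the No CM libraries, and the TIS CM mean lies between the Cont CM and No CM means.

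The comparisons ask what conditioned medium did to these genes and whether the medium of senescent cells differed from that of non-senescent ones. In Cont CM the class II genes were lower than in No CM throughout: limma called all 9 tested genes lower at an adjusted p under 0.05, where 8.56% of the 13912 tested genes were called lower and 7.77% higher. All fold changes below are on the log2(FPKM + 0.5) scale, which makes those of low genes smaller than the ratios of their means. HLA-DQB1 fell below the filter of a mean of 0.5 FPKM and was not tested, and the other 9 exceeded 0.5 FPKM in every library. The median log2 fold change of the 9 was -1.06, against -0.00 over all tested genes. In TIS CM compared with Cont CM, HLA-DPB1, HLA-DMB and HLA-DOA, 3 of the 9, were called higher and none lower, where 2.9% of tested genes were called higher and 1.57% lower. All 9 fold changes were above 0, with a median of 0.57 against 0.00 over all tested genes. In TIS CM compared with No CM only HLA-DOA was called, as lower, where 0.453% of tested genes were called lower. All 9 fold changes were below 0, with a median of -0.51 against 0.00. These comparisons share groups of libraries, so their values stand side by side and are not independent.

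The split of all calls between higher and lower depended on the scaling of the libraries. In TIS CM against Cont CM the fit gave 404 higher and 219 lower calls, but 284 and 395 with equal library sums and 310 and 273 with quantile normalization. In TIS CM against No CM it called 56 higher and 63 lower, but 28 and 106 with equal library sums. In Cont CM against No CM the calls were 1081 higher and 1191 lower, 862 and 1399 with equal library sums and 1129 and 1113 with quantile normalization. No class II gene changed direction under either scaling.

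The libraries of the groups were mostly apart. In Cont CM all 10 genes, HLA-DQB1 included, lay below every No CM library, which 16.8% of tested genes did. In TIS CM 8 of 10 lay above every Cont CM library, HLA-DRB1 and HLA-DQB1 being the exceptions, where 15% of tested genes did. In TIS CM 9 of 10 lay below every No CM library, HLA-DRB1 being the exception, where 11.6% of tested genes did. As a share of the No CM mean, the 10 genes stood between 54.8% (HLA-DOA) and 84.9% (HLA-DRB1) in TIS CM and between 35.7% (HLA-DOA) and 59.1% (CIITA) in Cont CM.

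**Figure D3:**
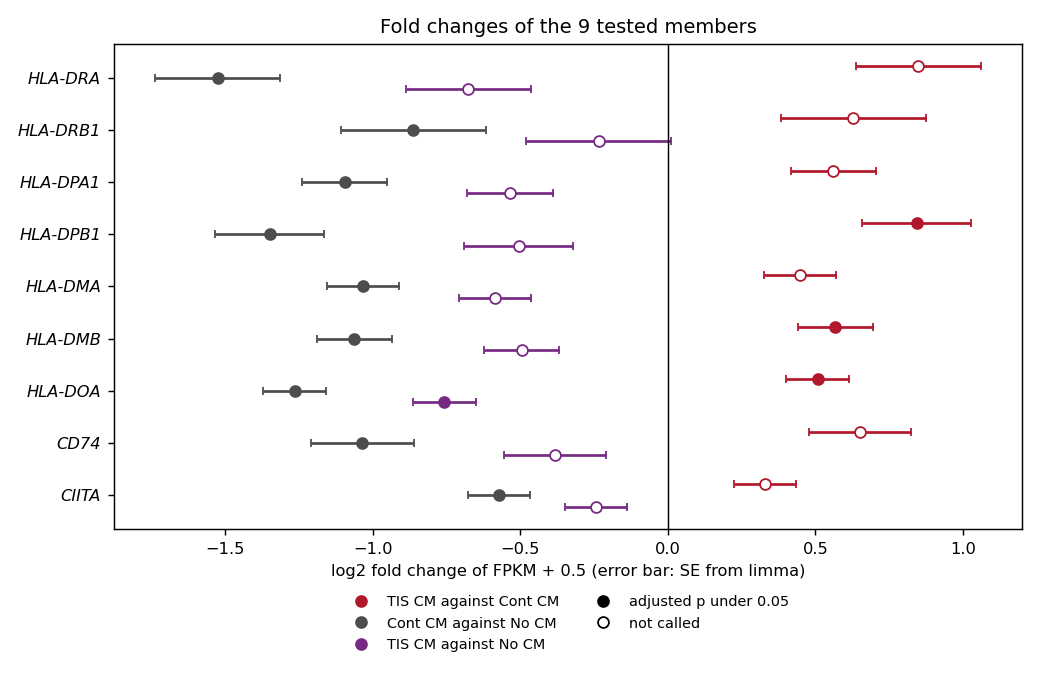
Log2 fold changes of the 9 tested genes on the log2(FPKM + 0.5) scale, with bars of 1 standard error on the x axis, for TIS CM against Cont CM, Cont CM against No CM and TIS CM against No CM. Filled points passed limma's adjusted p of 0.05: 3, 9 and 1 of the 9 genes.

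Cont CM replicate 1 was the lowest library of its group for all 10 genes, and it set much of the spread there. No CM replicate 2 was likewise the lowest of its group for all 10 genes, and TIS CM replicate 3 for 8. The coefficient of variation was 3.00% to 20.6% in TIS CM, 19.0% to 36.6% in Cont CM and 4.92% to 15.8% in No CM. Without Cont CM replicate 1, 6 genes were called higher in TIS CM than in Cont CM, HLA-DRA (log2 fold change 0.56, limma adjusted p = 0.0216), HLA-DPA1 (0.36, adjusted p = 0.0267) and CD74 (0.40, adjusted p = 0.0144) being added, while the median log2 fold change came down to 0.38. Without it 7 genes were called lower in TIS CM than in No CM. Calls over all tested genes rose too: 675 were higher in TIS CM than in Cont CM, against 404 with all libraries. Lower calls in TIS CM against No CM were 170, against 63 with all libraries. With any single No CM or TIS CM library left out, limma called no class II gene higher in TIS CM than in Cont CM, and without Cont CM replicate 2 or 3 it called 1. It also called none without the filter on low values, with GC and length trends removed, or with only the 2 groups fitted, whereas voom on the recovered fragments called 8. The higher calls over all tested genes fell or rose with the class II calls in each of these cases. Of the alternatives run, 8 of the 9 genes kept their call in Cont CM against No CM in all, and HLA-DRB1 lost it in 11 of 19.

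CIITA, the coactivator, was the lowest of the tested genes and moved least in Cont CM. It stood at 1.52, 1.45 and 1.64 FPKM in TIS CM replicates 1, 2 and 3, at 0.936, 1.38 and 1.08 in Cont CM and at 2.07, 1.81 and 1.85 in No CM. All 3 groups were apart, with Cont CM lowest and No CM highest. On the log2(FPKM + 0.5) scale it was 1.49-fold lower in Cont CM than No CM (log2 fold change -0.57, SE 0.10, limma adjusted p = 0.00757). On the same scale it was 1.26-fold higher in TIS CM than in Cont CM (log2 fold change 0.33, SE 0.10), which did not pass the test (limma adjusted p = 0.103), and TIS CM against No CM gave -0.24 (adjusted p = 0.351). CIITA overlaps DEXI on the opposite strand over 13570 bases (chromosome 16, 10866222 to 10943021 for CIITA on hg38). The strand setting of the counting is not stated in the labels, so fragments of the overlap cannot be assigned, and DEXI averaged 3.82 FPKM.

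HLA-DRA (chromosome 6, 32439842 to 32445046, plus strand) had the largest fall of the 9 genes in Cont CM on the log2(FPKM + 0.5) scale, while as a share of the No CM mean it stood at 35.9%, beside 35.7% for HLA-DOA. It stood at 169, 166 and 148 FPKM in TIS CM, at 59.1, 115 and 103 in Cont CM and at 284, 227 and 263 in No CM. The 3 groups did not overlap, and Cont CM replicate 1 lay far under the other Cont CM libraries. In Cont CM it was 2.88-fold lower than in No CM (log2 fold change -1.52, SE 0.21, limma adjusted p = 0.00228). In TIS CM it was 1.80-fold higher than in Cont CM (log2 fold change 0.85, SE 0.21), which did not pass the test (limma adjusted p = 0.0574), and TIS CM against No CM gave -0.68 (adjusted p = 0.206). The values rest on 2494 to 13145 fragments per library, so counting error is small beside the spread between libraries.

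HLA-DRB1 encodes the polymorphic partner of HLA-DRA and was the least settled of the 9. It stood at 10.81, 15.15 and 10.76 FPKM in TIS CM, at 4.98, 8.19 and 10.83 in Cont CM and at 14.6, 12.1 and 16.6 in No CM. TIS CM overlapped both other groups, while Cont CM lay below No CM. It was 1.82-fold lower in Cont CM than No CM (log2 fold change -0.86, SE 0.25, limma adjusted p = 0.043). HLA-DRB1, HLA-DRB5 and the pseudogene HLA-DRB6 are related copies, so fragments may be split among them and each value is uncertain. HLA-DRB3 and HLA-DRB4 were not among the genes measured, so any fragments of theirs were not counted under their own names. HLA-DRB5 averaged 7.49 ± 0.382 FPKM in TIS CM, 4.71 ± 1.10 in Cont CM and 11.9 ± 2.32 in No CM (SD, n = 3 each) and was also called lower in Cont CM than No CM (log2 fold change -1.26, limma adjusted p = 0.00208), as was HLA-DRB6 (-0.82, adjusted p = 0.0294).

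HLA-DPB1 and HLA-DPA1 encode the chains of HLA-DP, which lie on opposite strands and overlap by 4850 bases. As the strand setting of the counting is not stated, fragments of this overlap cannot be assigned to either gene. HLA-DPB1, the beta chain, stood at 17.8, 17.8 and 16.9 FPKM in TIS CM, at 6.51, 11.6 and 11.5 in Cont CM and at 27.2, 22.2 and 26.04 in No CM. The 3 groups did not overlap, and it was among the 3 genes called higher in TIS CM: 1.79-fold above Cont CM (log2 fold change 0.84, SE 0.18, limma adjusted p = 0.0403). In Cont CM it fell by 2.55-fold relative to No CM (log2 fold change -1.35, limma adjusted p = 0.00215). HLA-DPA1, the alpha chain, stood at 20.2, 20.6 and 18.9 FPKM in TIS CM, at 10.04, 15.8 and 14.96 in Cont CM and at 31.04, 26.2 and 30.1 in No CM. Its groups were apart in the same order. It fell in Cont CM relative to No CM (log2 fold change -1.09, SE 0.14, limma adjusted p = 0.00192), and TIS CM against Cont CM gave 0.56 (adjusted p = 0.0616).

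HLA-DQB1, the beta chain of HLA-DQ and the third class II isotype, was barely detected. It stood at 0.265, 0.372 and 0.291 FPKM in TIS CM, at 0.167, 0.313 and 0.218 in Cont CM and at 0.570, 0.492 and 0.570 in No CM. These rest on 46, 66 and 54 fragments in TIS CM, 27, 55 and 42 in Cont CM and 101, 87 and 96 in No CM. Every No CM library was above all the others, and TIS CM and Cont CM overlapped.

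CD74 encodes the invariant chain (chromosome 5, 150401637 to 150412929, minus strand). It stood at 168, 170.3 and 159 FPKM in TIS CM, at 74.6, 128 and 123 in Cont CM and at 228, 199 and 223 in No CM. The groups did not overlap. In Cont CM it was 2.05-fold lower than in No CM (log2 fold change -1.03, SE 0.17, limma adjusted p = 0.00516), whereas the 1.57-fold difference between TIS CM and Cont CM did not pass the test (log2 fold change 0.65, limma adjusted p = 0.0671).

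HLA-DMA and HLA-DMB encode HLA-DM, the editor that frees the groove of CLIP. HLA-DMB stood at 2.96, 3.13 and 2.73 FPKM in TIS CM, at 1.37, 2.25 and 1.93 in Cont CM and at 4.43, 4.03 and 4.59 in No CM. Its groups were apart, and it was called higher in TIS CM than in Cont CM (log2 fold change 0.57, SE 0.13, limma adjusted p = 0.0432) and lower in Cont CM than No CM (-1.06, adjusted p = 0.0012). HLA-DMA stood at 13.2, 12.1 and 11.2 FPKM in TIS CM, at 7.11, 10.5 and 9.10 in Cont CM and at 19.7, 16.9 and 19.01 in No CM. It was apart in the same order and fell in Cont CM relative to No CM (log2 fold change -1.03, SE 0.12, limma adjusted p = 0.00117), while TIS CM against Cont CM gave 0.45 (adjusted p = 0.0712). HLA-DMA overlaps BRD2 on the opposite strand over 435 bases, where fragments cannot be assigned either, and BRD2 averaged 43.8 FPKM.

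HLA-DOA, the alpha chain of HLA-DO, the brake on HLA-DM, was the only one of the 9 tested class II genes called in all 3 comparisons. It stood at 2.69, 2.61 and 2.355 FPKM in TIS CM, at 1.29, 1.92 and 1.77 in Cont CM and at 4.88, 4.43 and 4.65 in No CM. The 3 groups were apart. On the log2(FPKM + 0.5) scale it rose 1.42-fold in TIS CM over Cont CM (log2 fold change 0.51, SE 0.11, limma adjusted p = 0.0363). On that scale it fell 2.40-fold in Cont CM (log2 fold change -1.26, limma adjusted p = 0.000222) and 1.69-fold in TIS CM (-0.76, adjusted p = 0.0236) relative to No CM, while its means were 35.7% and 54.8% of the No CM mean. Only the call in Cont CM against No CM held in all 9 fits with 1 library left out. The call in TIS CM against Cont CM held in 1 of the 9. The call in TIS CM against No CM was lost without any single TIS CM or No CM library (limma adjusted p = 0.0677 to 0.124).

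Ratios within a library do not depend on how libraries were scaled, and they show how evenly the genes moved. Over 6 ratios and 3 comparisons, 18 two-sided exact permutation tests were run, none of which can go below p = 0.1 with 3 libraries a group. The lowest value reached after Benjamini-Hochberg adjustment of these tests was 0.129. HLA-DRA over CD74 was 0.969 ± 0.039 in TIS CM, 0.845 ± 0.0559 in Cont CM and 1.19 ± 0.0523 in No CM (SD, n = 3 each), with no overlap between groups. HLA-DRA over CIITA was 105 ± 13.0 in TIS CM, 80.9 ± 16.6 in Cont CM and 135 ± 8.92 in No CM, and TIS CM overlapped Cont CM (exact permutation p = 0.2). HLA-DMA over HLA-DOA, editor over brake, was 4.77 ± 0.137 in TIS CM, 5.36 ± 0.201 in Cont CM and 3.98 ± 0.144 in No CM, again with no overlap. For the paired chains of HLA-DP and of HLA-DM, TIS CM and No CM overlapped. The HLA-DP ratio carries the uncertainty of the overlap between its genes. HLA-DPA1 over HLA-DPB1 was 1.14 ± 0.0197 in TIS CM, 1.404 ± 0.124 in Cont CM and 1.16 ± 0.0204 in No CM (exact permutation p = 0.3 for TIS CM against No CM), and HLA-DMA over HLA-DMB was 4.15 ± 0.299, 4.85 ± 0.300 and 4.26 ± 0.157 in the same order (p = 0.5 by the exact permutation test for TIS CM against No CM). HLA-DRA over HLA-DRB1 was 13.4 ± 2.35 in TIS CM, 11.8 ± 2.27 in Cont CM and 18.04 ± 1.93 in No CM, and carries the uncertainty of HLA-DRB1.

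**Figure D4:**
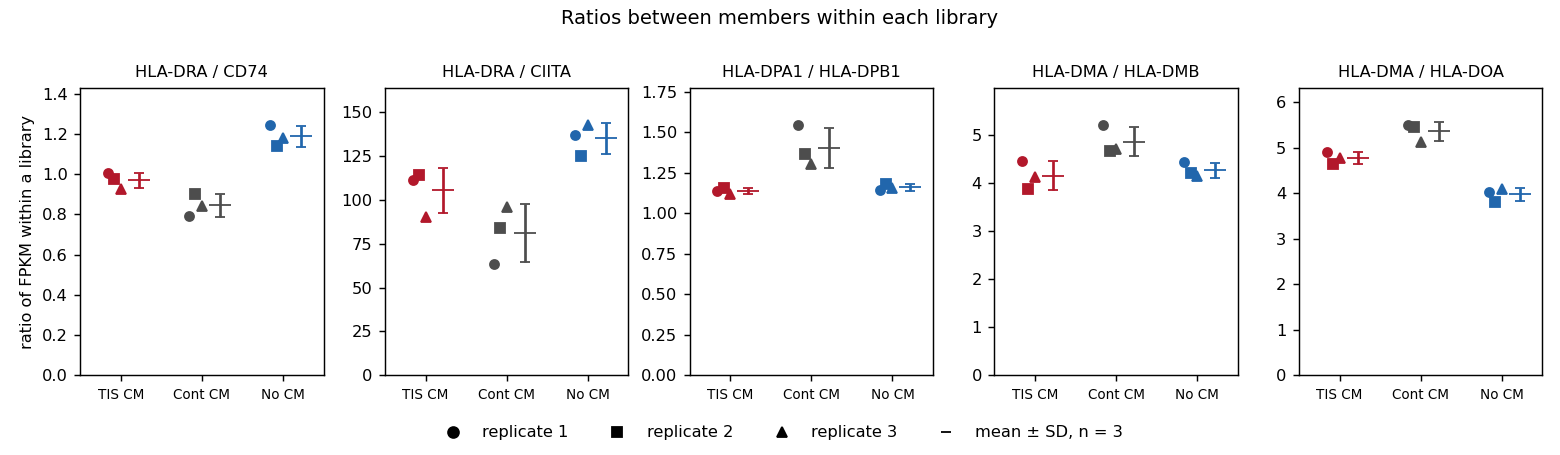
Ratios of FPKM between pairs of class II genes within each library, with TIS CM, Cont CM and No CM side by side; points are libraries and bars are the mean ± SD (n = 3), on y axes from 0. HLA-DRA over CD74 and HLA-DMA over HLA-DOA separate all 3 groups.

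Of 7 tested genes of the X and Y box factors, 1 was called higher and 1 lower in Cont CM than No CM (7.77% and 8.56% of all tested genes), with a median log2 fold change of -0.01. RFX5, a subunit of the RFX complex, fell (log2 fold change -0.26, limma adjusted p = 0.00219 in Cont CM and -0.20, adjusted p = 0.0444 in TIS CM, each against No CM). CREB1, which binds the X2 box, rose in Cont CM over No CM (log2 fold change 0.14, limma adjusted p = 0.0322) and fell in TIS CM relative to Cont CM (-0.17, adjusted p = 0.0435). Of 11 cofactors and repressors of CIITA, 1 was called lower in Cont CM than No CM, near the 8.56% of all tested genes. It was EZH2, a histone methyltransferase (log2 fold change -0.28, limma adjusted p = 0.0169), and limma called none in the other comparisons.

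Of 11 tested genes of interferon-gamma signalling, none was called in either comparison with TIS CM. Their median log2 fold changes were 0.06 for TIS CM against Cont CM and -0.14 for Cont CM against No CM. In Cont CM against No CM, 4 of the 11 were called lower, where 8.56% of all tested genes were. They were IRF1, which drives a CIITA promoter (log2 fold change -0.34, limma adjusted p = 0.00647), the class I coactivator NLRC5 (-0.29, adjusted p = 0.0357) and the feedback inhibitors SOCS1 (-0.49, adjusted p = 0.0147) and SOCS3 (-0.38, adjusted p = 0.0126). JAK2, a kinase bound to the receptor, had a log2 fold change of -0.03 in Cont CM against No CM, which did not pass the test (limma adjusted p = 0.862). Interferon-gamma itself, IFNG, had 1 fragment in 1 of the 9 libraries and 0 in the other 8. IFNG was looked up after the other values had been seen.

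Of 13 tested genes of the endosomal class II route, 3 were called higher in TIS CM than in Cont CM, where 2.9% of all tested genes were. In Cont CM against No CM 1 was called higher and 3 lower, where 7.77% and 8.56% of all tested genes were. The lysosomal protease CTSD averaged 180.1 ± 1.54 FPKM in TIS CM, 117 ± 14.2 in Cont CM and 205 ± 8.73 in No CM (SD, n = 3 each), which was higher in TIS CM than in Cont CM (log2 fold change 0.63, limma adjusted p = 0.00997) and lower in Cont CM than No CM (-0.82, adjusted p = 0.000379). The protease inhibitor CST3 moved likewise by less (0.18, adjusted p = 0.0463, and -0.29, adjusted p = 0.00226). The tetraspanin CD82 fell in Cont CM (-0.47, adjusted p = 0.0348), and the protease CTSB rose (0.16, adjusted p = 0.0322), both against No CM. The third gene called higher in TIS CM was the protease CTSF.

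Class I and interferon-stimulated genes had smaller median changes. Of 17 tested class I and peptide-loading genes, 8 were called lower in Cont CM than No CM (8.56% of all tested genes), with a median log2 fold change of -0.26, and 4 higher in TIS CM than in Cont CM (2.9%), with a median of 0.17. HLA-F (log2 fold change -0.94, limma adjusted p = 0.00208) and the immunoproteasome subunit PSMB10 (-0.50, adjusted p = 0.000606) were among the 8. Of 24 tested interferon-stimulated genes, 12 were called lower in Cont CM than No CM (median -0.29) and 4 lower in TIS CM than in No CM (median -0.21, where 0.453% of all tested genes were lower), IFI35 and OASL among both. No test compared these lists with the class II genes.

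**Figure D5:**
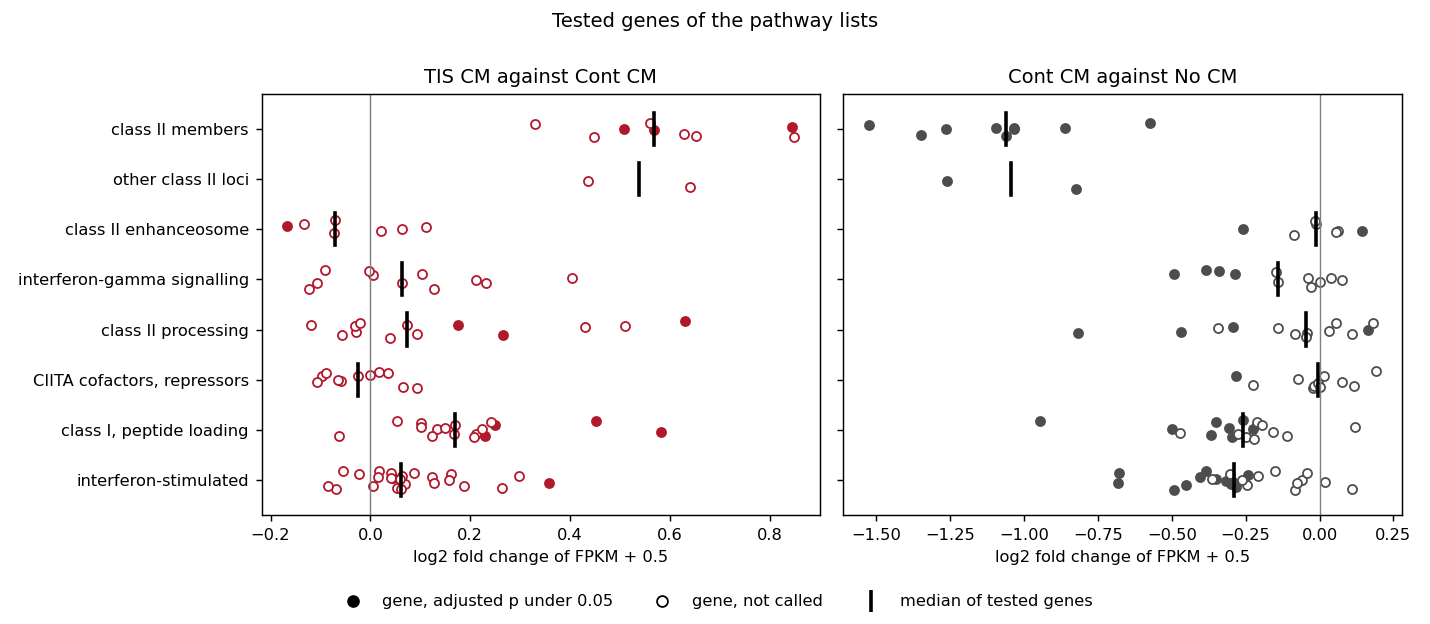
Log2 fold changes (x axis, log2(FPKM + 0.5) scale) of the tested genes of each list, for TIS CM against Cont CM and Cont CM against No CM; points are genes, filled where limma's adjusted p was under 0.05, and bars are list medians. In Cont CM against No CM the class II genes have a median of -1.06, the class I genes -0.26 and the interferon-stimulated genes -0.29.

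Over the 9 libraries, each tested class II gene had a Pearson r between 0.896 (HLA-DRB1) and 0.999 (HLA-DRA and HLA-DPA1) with the mean of the standardized class II values. That mean contains the gene itself, so a high r is partly built in. Outside the class II genes, the 8 protein-coding genes whose values followed that mean most closely were CREG1 and LMNB1 (r = 0.992), CSGALNACT1 and TMEM214 (0.990), and VIPR1, PLXNA1, FBP1 and KRT19 (0.989). The lamin gene LMNB1 averaged 39.4 ± 0.988 FPKM in TIS CM, 33.3 ± 3.04 in Cont CM and 44.6 ± 1.12 in No CM (SD, n = 3 each). VIPR1, which encodes a receptor for vasoactive intestinal peptide, averaged 2.96 ± 0.324, 1.79 ± 0.593 and 4.07 ± 0.304 FPKM in the same order. The keratin gene KRT19 averaged 122 ± 2.72, 107 ± 7.91 and 137 ± 2.20 FPKM. These correlations describe 9 libraries in 3 groups and share the differences between the groups and the scaling of each library.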

How the data were processed

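Polyadenylated RNA of 9 MDA-MB-231 libraries was sequenced, per the labels' protocols. The authors deposited FPKM per gene. The submitters' processing notes name genome build hg38 and, with no role given, DESeq2 1.20.0, featureCounts 1.5.0-p3, HISAT2 2.0.5 and fastp; whether counting used strand is not stated there. The deposited FPKM times gene length were whole multiples of 1 step per library for 100% of values, within 0.01, which gave fragment counts and library sizes. Genes with a mean of at least 0.5 FPKM over the 9 libraries were tested, 13912 of 58735. Values were put on the log2(FPKM + 0.5) scale, which understates changes of low genes, and group means over all 9 libraries were fitted with limma 3.58.1 (R 4.3.3) and an intensity trend. Benjamini-Hochberg adjustment ran over all tested genes, with 0.05 as the threshold for a call. As members, the 10 class II genes were named; the other genes named were up to 4 called genes per pathway list, by largest change in Cont CM against No CM, a few chosen regulators, up to 2 examples from the class I and interferon lists and the 8 genes most alike. Some genes that these rules name are not reported here. CTSF and IFNG were named after their values were seen. The genes and lists were chosen with earlier results of these data known. The limma fit was tried on simulated data in which all genes shared the same spread. That trial does not cover genes of larger or unequal spread, such as the class II genes. Alternatives were other pseudocounts, filters and scalings, removal of GC and length trends, voom on the recovered fragments with the library sizes implied by the steps, the 2 groups compared alone, the replicate number as a block, and each library left out. Figures were drawn with matplotlib 3.10.9 and permutation tests run with scipy 1.17.1.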

Additional observations from a re-analysis of the deposited data

How the results depend on the processing

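No fold change of the 9 tested genes reversed in 510 alternative values (428 on the same side of the threshold, 54 no longer past it, 28 newly past it). Many of these values could not reverse. Other filters, the 2 groups fitted alone, the replicate block and leaving out a library outside the comparison keep the fold change itself as it was. Where 2 groups did not overlap, leaving out 1 library cannot reverse it either. In TIS CM against Cont CM, the count of class II genes called higher (3), with all genes called higher (404) and lower (219), was 0, 128 and 79 without a filter, 8, 625 and 460 by voom on recovered fragments, 0, 86 and 47 with GC and length trends removed, and 0, 23 and 10 with only the 2 groups fitted. With a minimum of 2 FPKM 6 class II genes were called, and with equal library sums 395 genes were lower. HLA-DPB1, HLA-DMB and HLA-DOA were called in 8, 7 and 7 of 19 alternatives, with adjusted p up to 0.124, 0.133 and 0.124. In Cont CM against No CM, genes called higher (1081) and lower (1191) were 573 and 669 with only the 2 groups fitted, and 792 were lower without a filter. In TIS CM against No CM, class II genes lower (1), all genes higher (56) and lower (63) were 0, 23 and 23 without a filter, 4, 105 and 140 by voom, 2, 28 and 106 with equal library sums, and 7, 176 and 155 with only the 2 groups fitted. The cause of these shifts was not tested.

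The correlations showed no pairing by replicate number: 9 same-numbered pairs had correlations of -0.19 to 0.08 and 2 of 9 libraries correlated best with their own number. Taken on deviations from means of 3 libraries, they cannot settle whether same-numbered libraries shared a culture or a batch. With the replicate number as a block, the 3 counts were 0, 95 and 31 in TIS CM against Cont CM and 0, 2 and 2 in TIS CM against No CM. In Cont CM against No CM the block gave 8 class II genes lower, 672 genes higher and 789 lower.

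With each library left out in turn, TIS CM against Cont CM gave 0 to 6 class II genes, 7 to 675 genes higher, 4 to 409 lower and a class II median of 0.38 to 0.68. Without Cont CM replicate 1 it gave 6 class II genes, and 0 without any single TIS CM or No CM library. Cont CM against No CM gave 8 to 9 class II genes, 492 to 1332 genes higher, 583 to 1438 lower and a median of -1.18 to -0.90. TIS CM against No CM gave 0 to 7 class II genes, 6 to 195 genes higher, 3 to 170 lower and a median of -0.59 to -0.48. Leaving out libraries of the ratios was added after seeing the data, and of 108 such values 1 changed sign, for HLA-DMA over HLA-DMB in TIS CM against No CM. The edgeR alternative was not run, since the deposited values are FPKM, and voom used the library sizes implied by the steps and no TMM factors. With 3 libraries a group, HLA-DQB1 at 27 to 101 fragments is limited by depth, and HLA-DRB1 by its related copies.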
